A study of Mus musculus with 24 samples.

Results

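The histone genes described here are those whose symbol begins with H1f, H2ac, H2bc, H3c or H4c followed by a number, the names given to the linker histones and to the clustered copies of the core histones H2A, H2B, H3 and H4. The array carried 60 probes for 54 such genes, of 25697 probes and 16593 named genes in all, and 46 probes of 44 genes passed the detection filter. Membership was fixed by name alone. RNA came from fibro/adipogenic progenitors (FAPs), stromal cells that lie between muscle fibres and can form fibroblasts or fat cells. They were freshly sorted from the combined tibialis anterior, gastrocnemius and quadriceps of wild-type male C57BL/6J mice and hybridised to 24 Illumina 1-colour bead arrays. The groups were young quiescent FAPs (mice of 2 to 4 months, uninjured muscle), young activated FAPs (the same ages, 3 days after intramuscular injection of 50 µl of 50% glycerol), old quiescent FAPs (20 to 24 months, uninjured) and old activated FAPs (20 to 24 months, 3 days after glycerol). Each group held 6 arrays, described by the submitters as biological replicates. All groups share strain, sex and genotype. The sources used here name neither the surface markers of the sort nor a chip or scan batch. The column names carry an unexplained letter that is constant within each group, so its meaning and the group cannot be told apart.

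A dividing cell has to package a second copy of its genome, and it makes most of its core histones while DNA is being copied. The genes that serve this purpose lie in clusters, exist as many near-identical copies, lack introns for the most part, and give mRNAs that usually end in a conserved stem-loop instead of a poly(A) tail. H2A, H2B, H3 and H4 form the octamer around which DNA is wound, and H1 proteins bind the DNA between octamers. A cell outside S phase degrades these mRNAs quickly, so their level is commonly read as a sign of DNA synthesis. A few genes under the same naming system are of another kind: H1f10 is made outside S phase, H1f6, H1f7, H2ac1 and H2bc1 are testis histones, and H1f8 is an oocyte histone. The amplification kit named in the labels primes from poly(A), so the arrays see a stem-loop mRNA only as far as that step captured it, and how far it did was not tested.

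Detected probes (detection p under 0.01) numbered 6587 to 9943 an array, and arrays of one group correlated with a median of 0.907 in old quiescent FAPs and of 0.938 to 0.95 elsewhere. Several arrays stood apart before any comparison. The lowest of all numbers of detected probes (6587) and of all limma array weights (0.294) were those of old activated array 4, and the highest number of detected probes (9943) was that of old activated array 3. Old quiescent array 2 had a macrophage marker level of 10.68 on the log2 scale, against 7.08 to 9.08 on the other old quiescent arrays. Counts without old quiescent 2 and old activated 4 are given beside the main counts below. This pair was chosen after seeing the data. As the RNA came from sorted cells in bulk, fewer cells in S phase and less histone mRNA per cell cannot be told apart.

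RefSeq places 44 of the 54 genes on chromosome 13, 7 on chromosome 3, 2 on chromosome 6 and 1 on chromosome 15. Their gene models are short: 49 of 54 span under 1000 bases, and the median is 492.5 bases. The exceptions among the members with values are H2bc4, whose model spans 8282 bases, and H2bc6, whose model spans 37455. Of the 60 probes 26 were detected on all 24 arrays, 11 on none and 3 on 1 to 5 arrays. The 14 probes that did not pass belong to H1f3, H1f4, H1f6, H1f7, H1f8, H1f10 (2 probes), H2ac1, H2bc1, H2bc3, H2bc8, one of the 2 probes of H2bc4 and 2 of the 3 probes of H3c7. The testis and oocyte genes under this naming system were thus all among the probes below the filter. Array values say nothing about how much of one histone mRNA there is beside another, because each probe binds with its own strength. The copies are close in sequence and the probe sequences were not used here, so a probe may also take up RNA of other copies. Results are therefore given probe by probe, as normalized log2 values, and a probe ID is added where a gene has several.

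Most passing histone probes were higher in activated than in quiescent FAPs of young mice, and each of the 5 classes held some of them. In H1 these were 2 of 3 passing probes, H1f5 and H1f1, while the brightest, H1f2, was not called. At an adjusted p under 0.05 (limma, Benjamini-Hochberg over all 10048 probes), 33 of 46 member probes were higher and 0 lower, where 17.3% of all probes tested were higher and 15.5% lower. The median log2 change of the members was 1.59, against 0.0123 over all probes. In old mice 25 member probes were higher and 1 was lower, against 14.5% and 12.6% of all probes, with a median log2 change of 0.93 (0.0161 over all). Of the 46 probes 24 were higher in both ages, 9 were called higher in young FAPs alone, 1 in old FAPs alone and 12 in neither. All activated arrays lay above all quiescent arrays for 30 member probes in young mice (11.3% of all probes did so) and for 5 in old mice (4.32% of all). Of the 33 probes higher in young FAPs 5 (H1f1, H3c3, H3c8, H3c10 and H4c2) were above background on no young quiescent array. These passed the filter through the other groups, so their higher level there follows in part from the filter, and 28 probes remained besides them. All 5 are also among the 30 probes without overlap in young mice. Of the 26 members detected on all 24 arrays, which were measured in every group, 23 rose in young and 21 in old FAPs, while 42.2% and 36.4% of all such probes were called in either direction. Without old quiescent array 2 and old activated array 4 the counts over the 46 were 35 higher and 1 lower in young and 21 higher and 1 lower in old FAPs. In those fits 35.1% and 28.5% of all probes were called in either direction.

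**Figure D1:**
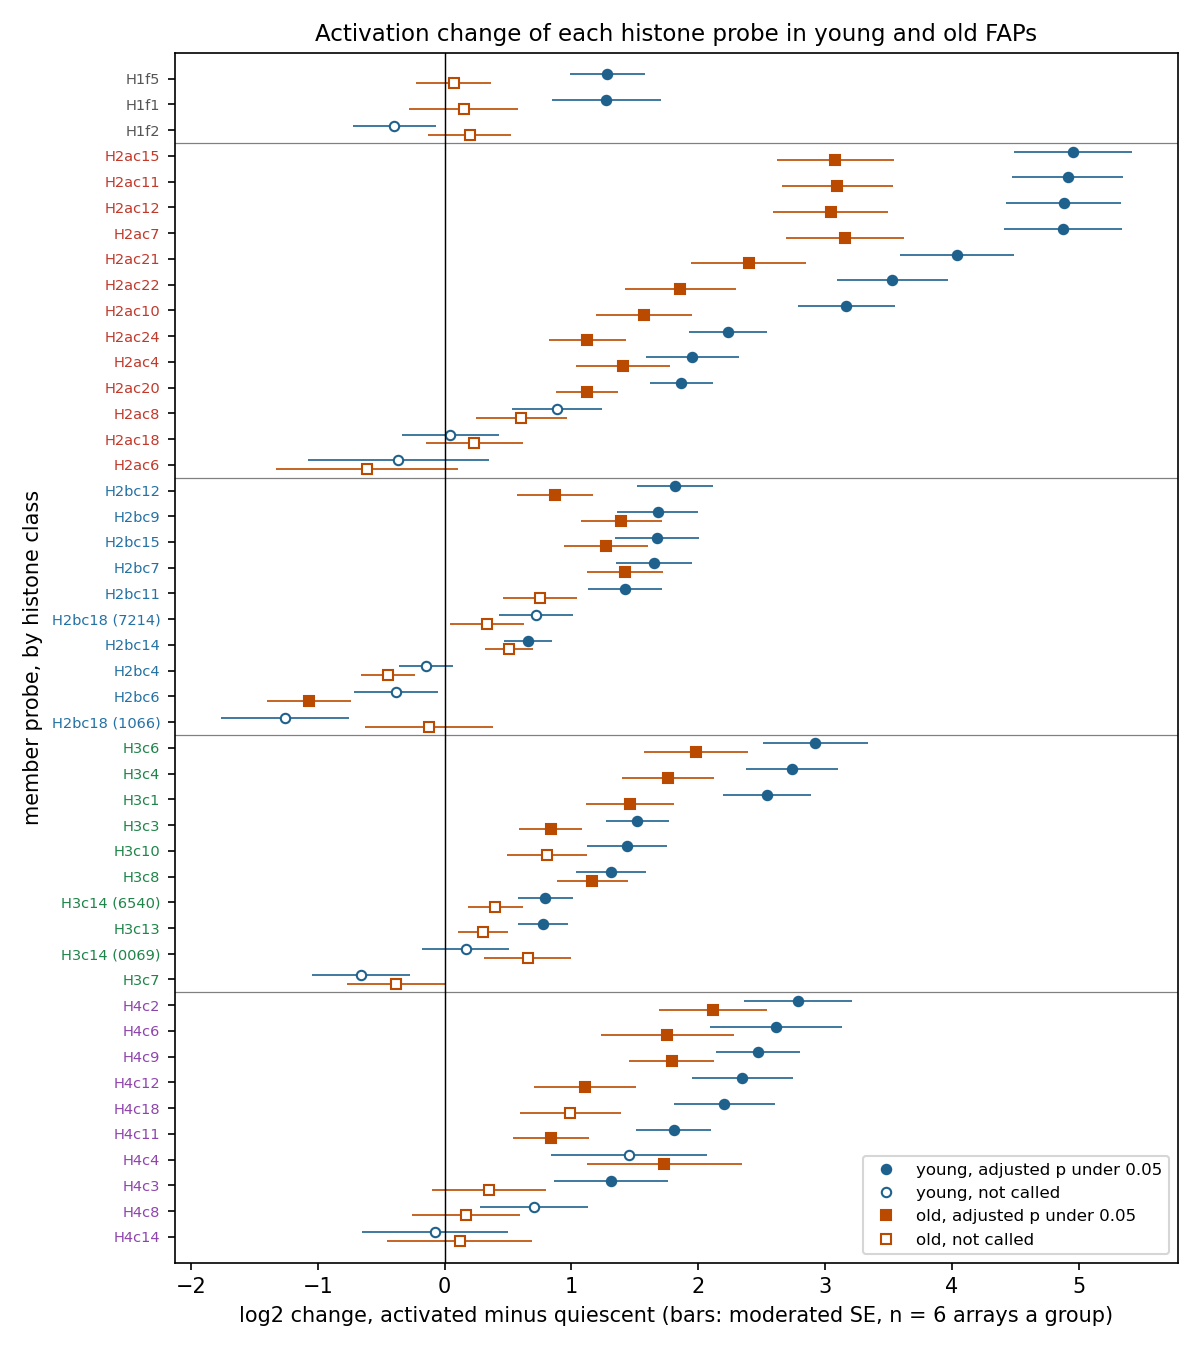
Log2 change from quiescent to activated FAPs for each of the 46 member probes (activated minus quiescent, x axis) in young (circles) and old mice (squares), with moderated standard errors from 6 arrays a group. Filled symbols passed an adjusted p under 0.05, and the young changes of H1f1, H3c3, H3c8, H3c10 and H4c2 rest on a background level. The H2A probes H2ac15, H2ac11, H2ac12 and H2ac7 reach 4.88 to 4.96 in young and 3.04 to 3.16 in old FAPs, and the other filled symbols lie between 0.66 and 4.04, save H2bc6 at -1.07 in old FAPs.

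H2A genes had the largest median change of the 5 classes. Of 13 probes 10 rose in both ages, and the class median was 3.17 in young and 1.57 in old FAPs on the log2 scale. H2ac15 read 7.18, 7.75 and 8.11 (lowest, median and highest of 6 arrays) in young quiescent, 11.74, 12.82 and 13.03 in young activated, 6.89, 9.02 and 10.98 in old quiescent, and 11.13, 12.33 and 12.88 in old activated FAPs. Activated and quiescent arrays did not overlap in either age, and the old quiescent arrays were the most scattered of the 4 groups. The change was 4.96 ± 0.46 in young (SE, n = 6 per group; adjusted p = 1.78e-08) and 3.08 ± 0.46 in old FAPs (adjusted p = 2.78e-05, limma). H2ac15, H3c6, H4c2 and H2bc15 are given in this detail because of their values, whereas the pair of brightest probes of each class was named by rule. H2ac11 (4.91 in young, 3.10 in old), H2ac12 (4.88 and 3.04) and H2ac7 (4.88 and 3.16) had similar changes, and for none of them did activated and quiescent arrays overlap in either age. On each of the 24 arrays, the differences of these 4 probes from their own young quiescent means lay within 0.584 of one another, with a median gap of 0.241, while the mean of the 4 ran from -0.79 to 5.33. Whether the 4 probes read separate mRNAs was not tested.

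Among the other H2A probes, H2ac21 rose by 4.04 in young and 2.40 in old FAPs, H2ac22 by 3.53 and 1.86, H2ac10 by 3.17 and 1.57, and H2ac4 by 1.95 and 1.41. H2ac4 was above background on all activated arrays but on only 2 quiescent arrays of each age, so its calls follow in part from the filter. H2ac20, one of the 2 brightest H2A probes, read 11.95, 12.39 and 12.64 in young quiescent, 14.07, 14.26 and 14.37 in young activated, 11.81, 13.26 and 14.12 in old quiescent, and 14.18, 14.26 and 14.42 in old activated FAPs. Its groups did not overlap in either age, and it rose by 1.87 ± 0.25 (adjusted p = 2.49e-06) and 1.12 ± 0.25 (adjusted p = 0.00145). H2ac24 read 11.62, 12.002 and 12.26, then 14.15, 14.22 and 14.33 in young mice, and 11.31, 13.38 and 14.30, then 14.21, 14.28 and 14.37 in old mice, quiescent first. Young arrays did not overlap, while the highest old quiescent array reached the old activated range. H2ac24 rose by 2.24 ± 0.30 in young (adjusted p = 3.78e-06) and by 1.13 ± 0.30 in old FAPs (adjusted p = 0.00742), where the call was lost in a fit of the 2 groups compared alone (adjusted p = 0.0618). Both probes sat at the top of the scale after activation: 14.42 was the highest value of any probe after normalization, and only 5 probes were brighter than H2ac20 and 6 brighter than H2ac24 in young activated FAPs. H2ac10 had 78 brighter probes. How far the ceiling limits the changes of these 3 probes was not tested.

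The 3 H2A probes not called in either age were H2ac8 (0.89 in young, adjusted p = 0.0599; 0.61 in old), H2ac18 (0.05 and 0.24) and H2ac6 (-0.36 and -0.61). H2ac18 was detected on all 24 arrays, and its 95% interval in young FAPs ran from -0.74 to 0.83, below the change of any H2A probe that rose. H2ac6 varied widely within groups, from 4.28 to 8.26 among the old quiescent arrays, and its standard error of 0.72 was the widest among the members.

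**Figure D2:**
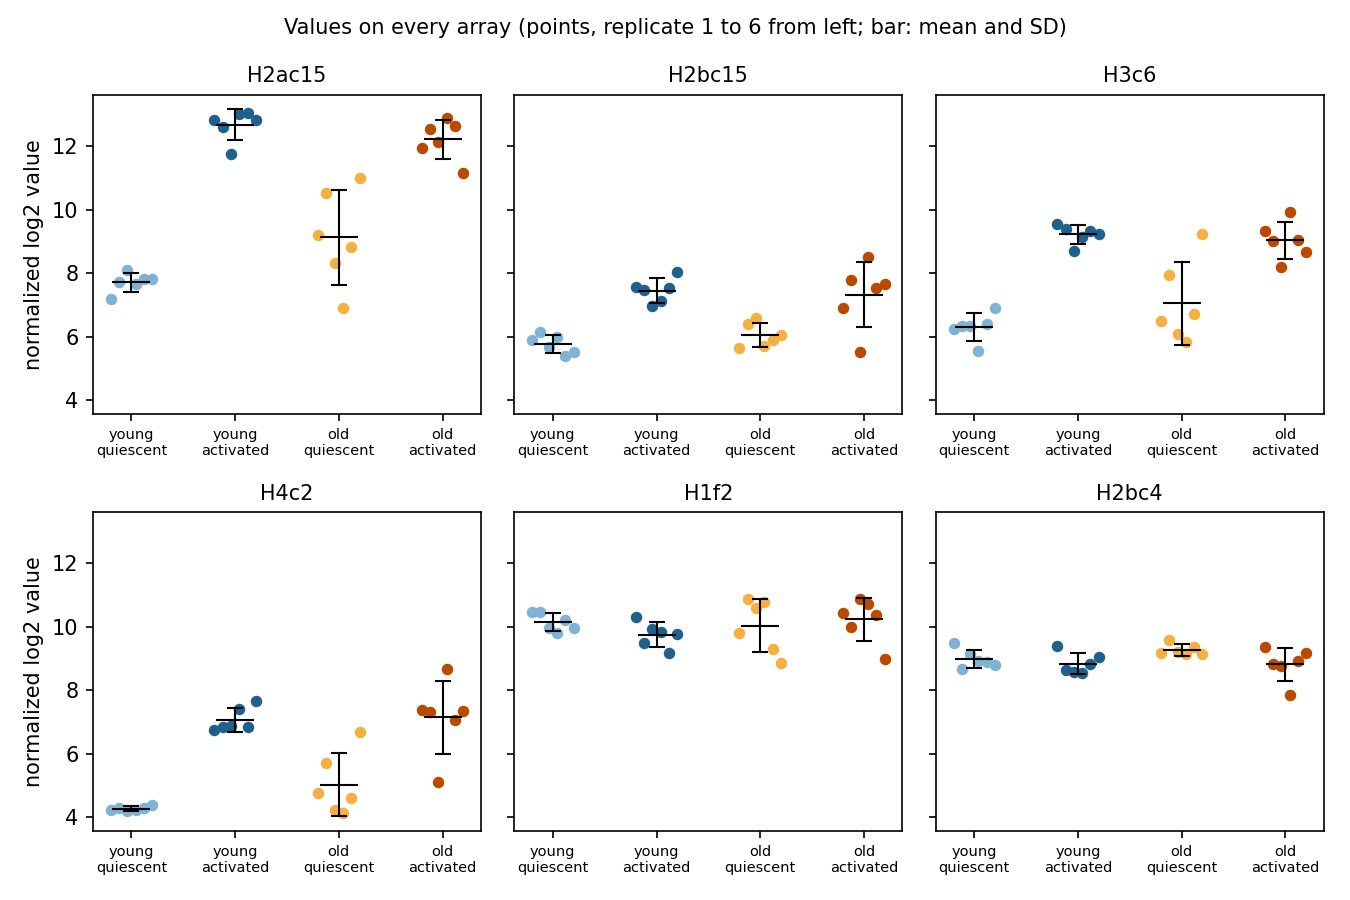
Normalized log2 values on every array (y axis) for H2ac15, H2bc15, H3c6, H4c2, H1f2 and H2bc4 in the 4 groups (x axis), with replicates 1 to 6 from left to right and the group mean with its SD. The first 4 probes have higher means after activation in both ages, with wide scatter in old quiescent FAPs for H2ac15 (6.89 to 10.98). In old mice single arrays make the quiescent and activated values of H2bc15, H3c6 and H4c2 overlap. H1f2 and H2bc4 overlap in all groups.

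H2B genes had smaller changes on their probes than H2A genes, a comparison of unlike probes that was not tested. Of 10 probes 6 rose in young FAPs, 4 rose in old FAPs and 1 fell there, with class medians of 1.07 and 0.63. H2bc7, which has the highest level of the class among probes that rose, read 6.64, 7.31 and 7.80 in young quiescent, 8.66, 8.89 and 9.20 in young activated, 7.02, 7.50 and 7.73 in old quiescent, and 7.25, 9.04 and 9.92 in old activated FAPs. The young groups did not overlap. In old mice 1 activated array, number 3, lay among the quiescent arrays and the rest above them. H2bc7 rose by 1.65 ± 0.30 in young (adjusted p = 0.000138) and by 1.42 ± 0.30 in old FAPs (adjusted p = 0.001). H2bc15 read 5.41, 5.77 and 6.15 in young quiescent, 6.95, 7.50 and 8.05 in young activated, 5.64, 5.97 and 6.58 in old quiescent, and 5.52, 7.60 and 8.50 in old activated FAPs. The young groups did not overlap, and old activated array 3 lay below every old quiescent array. H2bc15 rose by 1.68 ± 0.33 (adjusted p = 0.000333) and by 1.28 ± 0.33 (adjusted p = 0.00541). H2bc12 rose by 1.81 and 0.87, and H2bc9 by 1.68 and 1.39. H2bc11 (1.43) and H2bc14 (0.66) rose in young FAPs, and in old FAPs their changes of 0.75 (adjusted p = 0.0581) and 0.51 (adjusted p = 0.0509) did not pass. The young call of H2bc14 was lost under median scaling (0.54, adjusted p = 0.0831). The old call of H2bc12 was lost on leaving out quiescent 2, 3, 4 or 5 or activated 1, 4 or 5 among the old arrays, with log2 changes from 0.69 and adjusted p up to 0.0899, and in the fit of the 2 groups alone (adjusted p = 0.0951).

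Of the other 4 H2B probes, 1 fell in old FAPs and 3 were called in neither age. H2bc4, the brightest of the class, read 8.66, 8.89 and 9.49 in young quiescent, 8.54, 8.73 and 9.40 in young activated, 9.12, 9.19 and 9.58 in old quiescent, and 7.86, 8.87 and 9.36 in old activated FAPs. All 4 groups overlapped, and its changes of -0.15 (95% interval -0.59 to 0.29) and -0.45 (adjusted p = 0.129) did not pass. H2bc6 was the only member that fell: it read 4.18, 5.53 and 6.73 in old quiescent and 4.16, 4.24 and 5.50 in old activated FAPs, beside 4.30, 4.76 and 5.60, then 4.17, 4.34 and 5.03 in young mice. It was above background on 5 of 6 old quiescent arrays and on 1 of 6 old activated arrays, and the groups overlapped. H2bc6 passed the filter through the quiescent groups, so its lower level after activation follows in part from the filter. Its fall by 1.07 ± 0.33 in old FAPs (adjusted p = 0.0177) became 0.82 lower (adjusted p = 0.0547) without old quiescent array 3 and did not pass in the fit of the 2 groups alone (adjusted p = 0.0677), and the young change of -0.38 did not pass. The 2 probes of H2bc18 disagreed in sign in young FAPs, at -1.26 for ILMN_1231066 and 0.72 for ILMN_2817214, and neither passed (adjusted p = 0.0582 and 0.0631).

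H3 genes code for the core histone whose tail carries many of the known chromatin marks. In young FAPs H3c6, H3c4 and H3c1 changed by 2.54 or more, and a bright pair by 0.79 or less. Of 10 probes 8 rose in young and 5 in old FAPs, with class medians of 1.38 and 0.82. The young count includes H3c3, H3c8 and H3c10 and the old count H3c3 and H3c8, whose calls follow in part from the filter. H3c6 read 5.54, 6.33 and 6.91 in young quiescent, 8.70, 9.28 and 9.53 in young activated, 5.83, 6.61 and 9.24 in old quiescent, and 8.20, 9.03 and 9.91 in old activated FAPs. Only old quiescent array 6, at the activated level, made the old groups overlap. H3c6 rose by 2.92 ± 0.41 (adjusted p = 5.87e-06) and 1.98 ± 0.41 (adjusted p = 0.000875), H3c4 by 2.74 and 1.76, and H3c1 by 2.54 and 1.46. Of the bright pair, H3c13 read 10.70, 10.93 and 11.20 in young quiescent, 11.37, 11.67 and 12.13 in young activated, 10.98, 11.37 and 12.02 in old quiescent, and 11.26, 11.69 and 12.15 in old activated FAPs. The other, H3c14 on probe ILMN_3136540, read 10.17, 10.64 and 10.98, then 11.20, 11.32 and 11.83 in young mice, and 10.59, 11.02 and 11.63, then 10.80, 11.46 and 11.98 in old mice. For both, the young groups were apart and the old groups overlapped. H3c13 rose by 0.77 ± 0.20 in young FAPs (adjusted p = 0.00361) and changed by 0.30 in old FAPs (adjusted p = 0.272). H3c14 rose by 0.79 ± 0.22 (adjusted p = 0.00647) and changed by 0.40 in old FAPs (adjusted p = 0.183).

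H3c3, H3c8 and H3c10 were above background on none of the young quiescent arrays and on all 6 young activated arrays, so only a lower bound of their change can be given. They were at least 1.83-fold (H3c3), 1.83-fold (H3c8) and 1.75-fold (H3c10) higher in young activated FAPs. They passed the filter through the other groups, so no test of that difference is given. In old FAPs, where each was above background on 1 quiescent array, H3c3 rose by 0.84 and H3c8 by 1.17, and the 0.81 of H3c10 did not pass (adjusted p = 0.057). The old calls of H3c3 and H3c8 follow in part from the filter as well. The old call of H3c3 was lost in a fit of the 2 groups compared alone (adjusted p = 0.0859). The second passing probe of H3c14, ILMN_3040069, was dim and not called (0.17 and 0.65), nor was H3c7 (-0.66 and -0.38).

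H4 genes had higher values after activation as well. Of 10 probes 7 rose in young and 6 in old FAPs, with class medians of 2.01 and 1.05. Both counts include H4c2, whose calls follow in part from the filter. H4c2 read 4.21, 4.26 and 4.39 in young quiescent, 6.75, 6.86 and 7.66 in young activated, 4.13, 4.69 and 6.69 in old quiescent, and 5.12, 7.33 and 8.65 in old activated FAPs. It was above background on no young quiescent array and on all activated arrays, and it was at least 4.51-fold higher in young activated FAPs, a difference given without a test because the probe, too, passed the filter through the other groups. In old mice the activated array 3 alone lay inside the quiescent range, and H4c2 rose by 2.12 ± 0.42 (adjusted p = 0.0006). It was above background on only 2 old quiescent arrays, so this call follows in part from the filter too. H4c11, the brightest of the class, read 7.10, 7.73 and 7.97 in young quiescent, 8.90, 9.50 and 9.84 in young activated, 8.20, 8.43 and 9.38 in old quiescent, and 8.09, 9.49 and 10.70 in old activated FAPs. H4c12, the next, read 6.25, 6.92 and 7.34, then 8.48, 9.23 and 9.79 in young mice, and 7.20, 7.96 and 8.85, then 7.0, 9.33 and 10.27 in old mice. The young groups of both probes were apart, and the lowest old activated value of each, on array 3, was below every old quiescent array. H4c11 rose by 1.81 ± 0.30 in young (adjusted p = 4.24e-05) and 0.84 ± 0.30 in old FAPs (adjusted p = 0.0374). H4c12 rose by 2.35 ± 0.40 (adjusted p = 6.25e-05) and 1.11 ± 0.40 (adjusted p = 0.0412).

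H4c6 rose by 2.61 in young and 1.76 in old FAPs, and H4c9 by 2.47 and 1.79. H4c18 (2.20) and H4c3 (1.31) rose in young FAPs, while their old changes of 0.99 (adjusted p = 0.0654) and 0.35 (adjusted p = 0.609) did not pass. H4c4 was the probe called in old FAPs alone, at 1.73 ± 0.61 (adjusted p = 0.0377), beside 1.45 ± 0.61 in young FAPs (adjusted p = 0.0725). H4c8 (0.71 and 0.17) and H4c14 (-0.07 and 0.12) were not called. The weaker H4 calls depended on single arrays. In old FAPs, H4c11 was lost on leaving out quiescent 1, 2, 4, 5 or 6 or activated 1, 2, 4 or 5, with changes down to 0.58 and adjusted p up to 0.106. H4c12 was lost without quiescent 1, 2, 3 or 4 or activated 1, 2, 4, 5 or 6 (down to 0.87, adjusted p up to 0.109), and H4c4 without quiescent 1, 4, 5 or 6 or activated 2, 4 or 6 (down to 1.24, adjusted p up to 0.11). A fit of the 2 old groups alone also ended these 3 calls (adjusted p = 0.127, 0.112 and 0.107) and that of H4c6 (adjusted p = 0.0536). In young FAPs, H4c3 was lost without young quiescent 1, 4 or 5 or young activated 5 (down to 1.08, adjusted p up to 0.0759).

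Linker histone probes were few, since 3 of 10 passed. H1f2, the brightest, read 9.79, 10.08 and 10.47 in young quiescent, 9.16, 9.80 and 10.30 in young activated, 8.86, 10.18 and 10.86 in old quiescent, and 8.99, 10.40 and 10.87 in old activated FAPs. All groups overlapped, and the changes of -0.40 (95% interval -1.07 to 0.28) and 0.20 (-0.48 to 0.88) did not pass. H1f5 read 4.58, 4.79 and 5.29, then 5.08, 6.34 and 7.24 in young mice, and 4.96, 5.32 and 6.41, then 5.17, 5.63 and 5.87 in old mice. Its young groups overlapped at their edges and its old groups overlapped fully. H1f5 rose by 1.28 ± 0.30 in young FAPs (adjusted p = 0.00155), against 0.07 ± 0.30 in old FAPs (adjusted p = 0.891). H1f1 was above background on none of the young quiescent and 4 of the young activated arrays and was at least 1.62-fold higher there, which is given without a test for the same reason as for H4c2. Its call in the fit was lost without young activated array 1, 4 or 6 (adjusted p up to 0.0666). Its old change was 0.15 (adjusted p = 0.84).

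The copies also share sequence around their start sites. RefSeq windows of 250 bases before to 50 after the annotated start (GRCm38.p6) were found for 50 of the 54 genes, 51 windows in all, and were searched on both strands for 4 motifs, where a base could count for more than one motif. CCAAT, the box that NF-Y binds, was in 82.4% of the member windows and 37.4% of all 32851 windows. It was in all 14 H2A, all 12 H2B and all 7 H3 windows, but in 2 of 9 H4 windows. TATAAA was in 56.9% of member windows, against 13.6% of all. ATTTGCAT, the octamer known from H2B promoters as the site of the Oct-1 protein, was in 25.5% against 1.7%, in 6 H2A and 7 H2B windows and in none of the other classes. AAACACA, the H1 box, was in 17.6% against 7.2%, and in 5 of 9 H1 windows. These are letter matches and not sites shown to be bound. In 6 pairs the windows of an H2A and an H2B gene overlap, so a match in the shared bases counts in both windows. Of the members that rose in either age, 20 of 33 windows held TATAAA and 5 held the octamer. Of the passing members that did not rise, 3 of 8 windows held TATAAA and 4 held the octamer.

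The windows below show, for one member each, the H2A gene with the largest young change (H2ac15, chr13:21753863-21754162, minus strand), the H3 gene with the largest young change and an H4 gene that was above background on activated but not on young quiescent arrays (H3c6, chr13:23562336-23562635, minus; H4c2, chr13:23756687-23756986, plus), and genes of the H1 and H2A classes that did not rise (H1f2, chr13:23738557-23738856, plus; H2ac6, chr13:23683910-23684209, minus). Capitals mark the 4 motifs on either strand, and the last 50 of the 300 bases lie past the annotated start.
H2ac15: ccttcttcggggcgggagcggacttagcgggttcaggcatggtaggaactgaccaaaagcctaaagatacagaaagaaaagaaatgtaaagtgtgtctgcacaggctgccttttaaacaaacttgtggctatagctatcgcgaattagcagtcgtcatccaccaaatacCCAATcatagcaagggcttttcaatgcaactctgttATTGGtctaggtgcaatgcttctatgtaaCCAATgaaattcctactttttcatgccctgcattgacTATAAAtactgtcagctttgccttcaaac
H3c6: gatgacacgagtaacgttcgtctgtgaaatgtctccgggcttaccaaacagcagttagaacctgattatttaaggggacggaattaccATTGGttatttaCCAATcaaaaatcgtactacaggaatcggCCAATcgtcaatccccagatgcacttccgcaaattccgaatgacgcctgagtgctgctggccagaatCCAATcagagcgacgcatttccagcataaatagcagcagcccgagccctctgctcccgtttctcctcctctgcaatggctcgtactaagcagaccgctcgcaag
H4c2: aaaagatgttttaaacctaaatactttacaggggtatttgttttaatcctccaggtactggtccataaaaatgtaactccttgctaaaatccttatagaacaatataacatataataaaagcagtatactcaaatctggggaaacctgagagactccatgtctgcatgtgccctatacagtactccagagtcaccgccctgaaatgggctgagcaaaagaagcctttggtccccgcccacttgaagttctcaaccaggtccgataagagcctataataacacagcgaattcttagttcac
H1f2: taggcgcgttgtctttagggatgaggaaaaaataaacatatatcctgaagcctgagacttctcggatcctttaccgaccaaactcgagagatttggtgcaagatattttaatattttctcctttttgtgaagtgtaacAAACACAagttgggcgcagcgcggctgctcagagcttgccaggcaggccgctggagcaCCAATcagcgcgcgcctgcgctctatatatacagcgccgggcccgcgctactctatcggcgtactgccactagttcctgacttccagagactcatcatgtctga
H2ac6: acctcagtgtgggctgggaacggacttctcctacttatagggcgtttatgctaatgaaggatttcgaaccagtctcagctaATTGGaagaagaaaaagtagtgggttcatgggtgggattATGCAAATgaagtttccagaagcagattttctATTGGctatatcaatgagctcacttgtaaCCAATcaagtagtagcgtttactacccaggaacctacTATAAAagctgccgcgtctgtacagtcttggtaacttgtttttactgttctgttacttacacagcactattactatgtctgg
H2ac15 holds 3 CCAAT boxes and a TATAAA 21 bases past the annotated start, H3c6 holds 4 CCAAT boxes, and H4c2 holds none of the 4 motifs. H1f2 holds an H1 box 112 bases before the start and a CCAAT box. H2ac6, whose changes did not pass, holds 3 CCAAT boxes, an octamer and a TATAAA.

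H2A and H2B genes often lie head to head, sharing one stretch of DNA as promoter. In 6 pairs the windows overlapped on opposite strands, and in 4 of them both genes had a passing probe. Both genes rose in all 4 pairs in young FAPs and in 3 in old FAPs, the exception being H2ac11 and H2bc11. Windows of H2ac15 and H2bc15 overlap by 263 bases, and the changes on their probes were 4.96 and 1.68 in young and 3.08 and 1.28 in old FAPs. The windows of H2ac12 and H2bc12 overlap by 277 bases (4.88 and 1.81, then 3.04 and 0.87), and those of H2ac7 and H2bc7 by 273 (4.88 and 1.65, then 3.16 and 1.42). Relative to its own young quiescent mean, H2ac15 ran from -0.82 to 3.27 over the old quiescent arrays while H2bc15 ran from -0.13 to 0.81. In H2ac7 and H2bc7 the same ranges were -0.96 to 3.24 and -0.23 to 0.49. The H2A member of these pairs thus varied more among old quiescent arrays than its neighbour, a comparison between probes of unlike brightness that was not tested.

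Between old and young quiescent FAPs no member probe passed, where 0.488% of all probes did (49 of 10048). At an unadjusted p under 0.05 the count was 21 of 46, all higher in old FAPs, against 12.5% of all probes. The median difference, old minus young, was 0.61 for the members and -0.0249 for all probes. Of the members 39 of 46 lay above 0, against 47.1% of all probes. H2A probes had a median difference of 1.24, H4 of 0.68, H1 of 0.56, H3 of 0.41 and H2B of 0.28. H2ac10 came nearest to a call: it read 9.85, 10.34 and 10.61 in young and 9.64, 11.97 and 13.26 in old quiescent FAPs. Of the old arrays 5 lay above all young ones and 1, number 4, lay below them. The difference was 1.52 ± 0.38 (95% interval 0.74 to 2.31; adjusted p = 0.0622 in limma), and for H2ac15 it was 1.41 ± 0.46 (0.46 to 2.37; adjusted p = 0.168).

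The count depended on 1 array. Without old quiescent array 4, 9 member probes were higher in old quiescent FAPs (1.28% of all probes called), all of them H2A: H2ac7, H2ac10, H2ac11, H2ac12, H2ac15, H2ac20, H2ac21, H2ac22 and H2ac24. In that fit H2ac22 differed by 2.06 ± 0.34 (adjusted p = 0.00237), H2ac10 by 1.96 ± 0.27 (adjusted p = 0.000594) and H2ac24 by 1.53 ± 0.20 (adjusted p = 0.000433). No other single array changed the count from 0. H2ac10 alone was called with array weights (1.39, adjusted p = 0.0472) and among probes detected on all 24 arrays (1.52, adjusted p = 0.0461).

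Old quiescent arrays differed from one another more than those of any other group. The median SD of the member probes was 0.791 in old quiescent, 0.645 in old activated, 0.433 in young activated and 0.349 in young quiescent FAPs, against 0.518, 0.502, 0.385 and 0.389 over all probes. Array 6 was the highest of the 6 old quiescent arrays for 25 of 46 members (16% of all probes), and array 4 the lowest for 21 (13.9% of all). The mean of H2ac7, H2ac11, H2ac12 and H2ac15 was 10.64 on array 6, 10.15 on array 2, between 8.17 and 8.73 on arrays 1, 3 and 5, and 6.60 on array 4. In young quiescent FAPs it lay between 6.89 and 7.81.

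**Figure D3:**
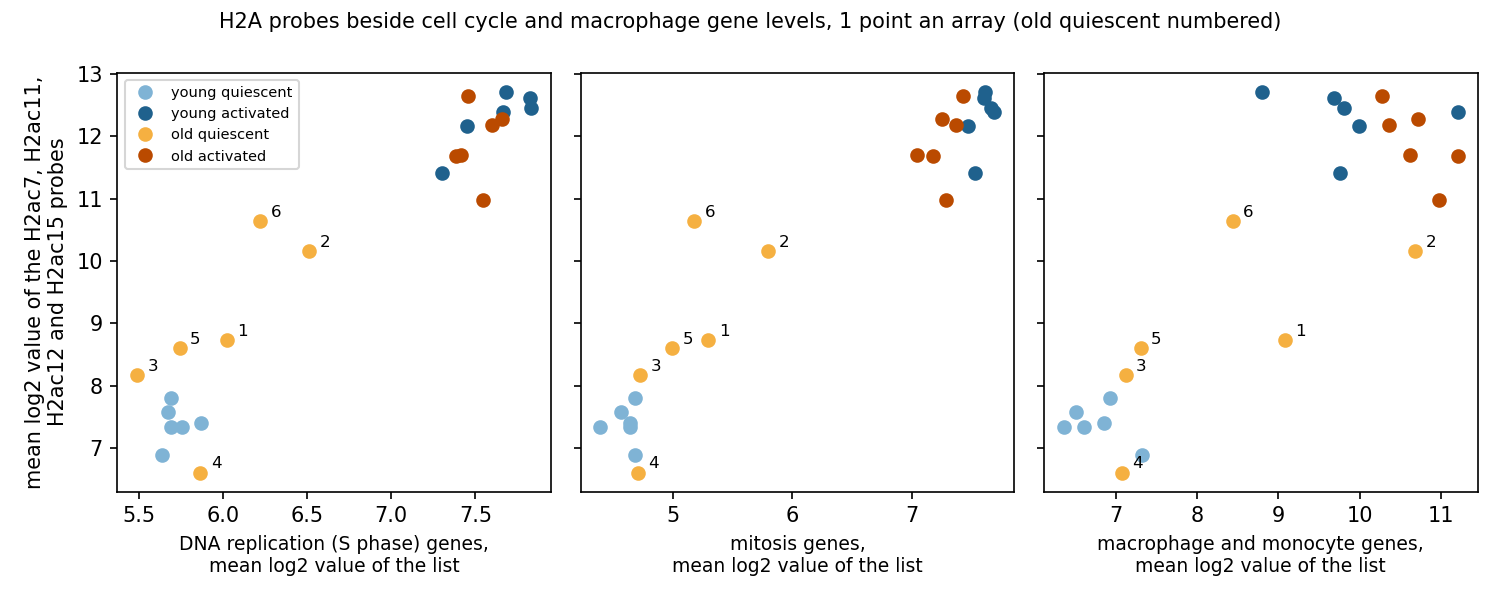
Mean log2 value of the H2ac7, H2ac11, H2ac12 and H2ac15 probes on each array (y axis) against the mean log2 value of DNA replication genes (left), mitosis genes (middle) and macrophage and monocyte genes (right), 1 point an array, with old quiescent arrays numbered. Old quiescent arrays 2 and 6 lie between the quiescent and the activated arrays on the y axis, at 10.15 and 10.64, and array 4 lies below the young quiescent arrays.

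The levels of other genes on the same old quiescent arrays are given beside these values. On arrays 2 and 6, DNA replication genes averaged 6.51 and 6.22 and mitosis genes 5.80 and 5.18, against highest young quiescent values of 5.87 and 4.68. The other old quiescent arrays ranged from 5.49 to 6.02 for DNA replication and from 4.71 to 5.30 for mitosis genes. Macrophage markers averaged 10.68 on array 2, 9.08 on array 1, 8.44 on array 6 and 7.08 to 7.31 on the rest. Lymphocyte markers were highest on array 6 at 9.61, and 6.56 to 8.29 on the others. These values move with the histone level on some arrays and not on others, and their part in the result was not tested.

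In activated FAPs none of the 46 member probes passed for age, where 0.219% of all probes did (22), and 1 had an unadjusted p under 0.05 (11.6% of all). The median difference, old minus young, was -0.08, and the smallest adjusted p was 0.319, for H2bc18 on ILMN_2817214 (-0.72, 95% interval -1.33 to -0.12). For H2ac15 the interval ran from -1.42 to 0.50 and for H4c12 from -0.94 to 0.71. With 6 arrays a group, the intervals of H2ac15 and H4c12 hold 0 as well as differences of either sign. That of H2bc18 lies below 0 without adjustment for the number of probes.

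The difference between the activation changes, old minus young, passed for none of the 46 probes (0.169% of all, 17 probes). Of the members 15 had an unadjusted p under 0.05, all with the lower change in old FAPs, against 8.2% of all probes. The median was -0.68 (-0.0046 over all). Of the members 39 of 46 lay below 0 and 7 above it, where 49.5% of all probes lay above 0. The smallest adjusted p was 0.328, for H2ac10 (-1.60 ± 0.54). H2ac15 differed by -1.87 ± 0.66 (adjusted p = 0.356), H1f5 by -1.21 ± 0.42 (adjusted p = 0.35) and H4c12 by -1.24 ± 0.56 (adjusted p = 0.561). Without old quiescent array 4, 4 member probes passed (0.289% of all probes called): H2ac10 (-2.03, adjusted p = 0.0139), H2ac12 (-2.32, adjusted p = 0.0384), H2ac22 (-2.14, adjusted p = 0.0469) and H2ac24 (-1.48, adjusted p = 0.0172). Counts that are higher in young than in old FAPs are therefore not shown to differ by age when all arrays are kept. This contrast and the age contrast in quiescent FAPs share both quiescent groups.

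**Figure D4:**
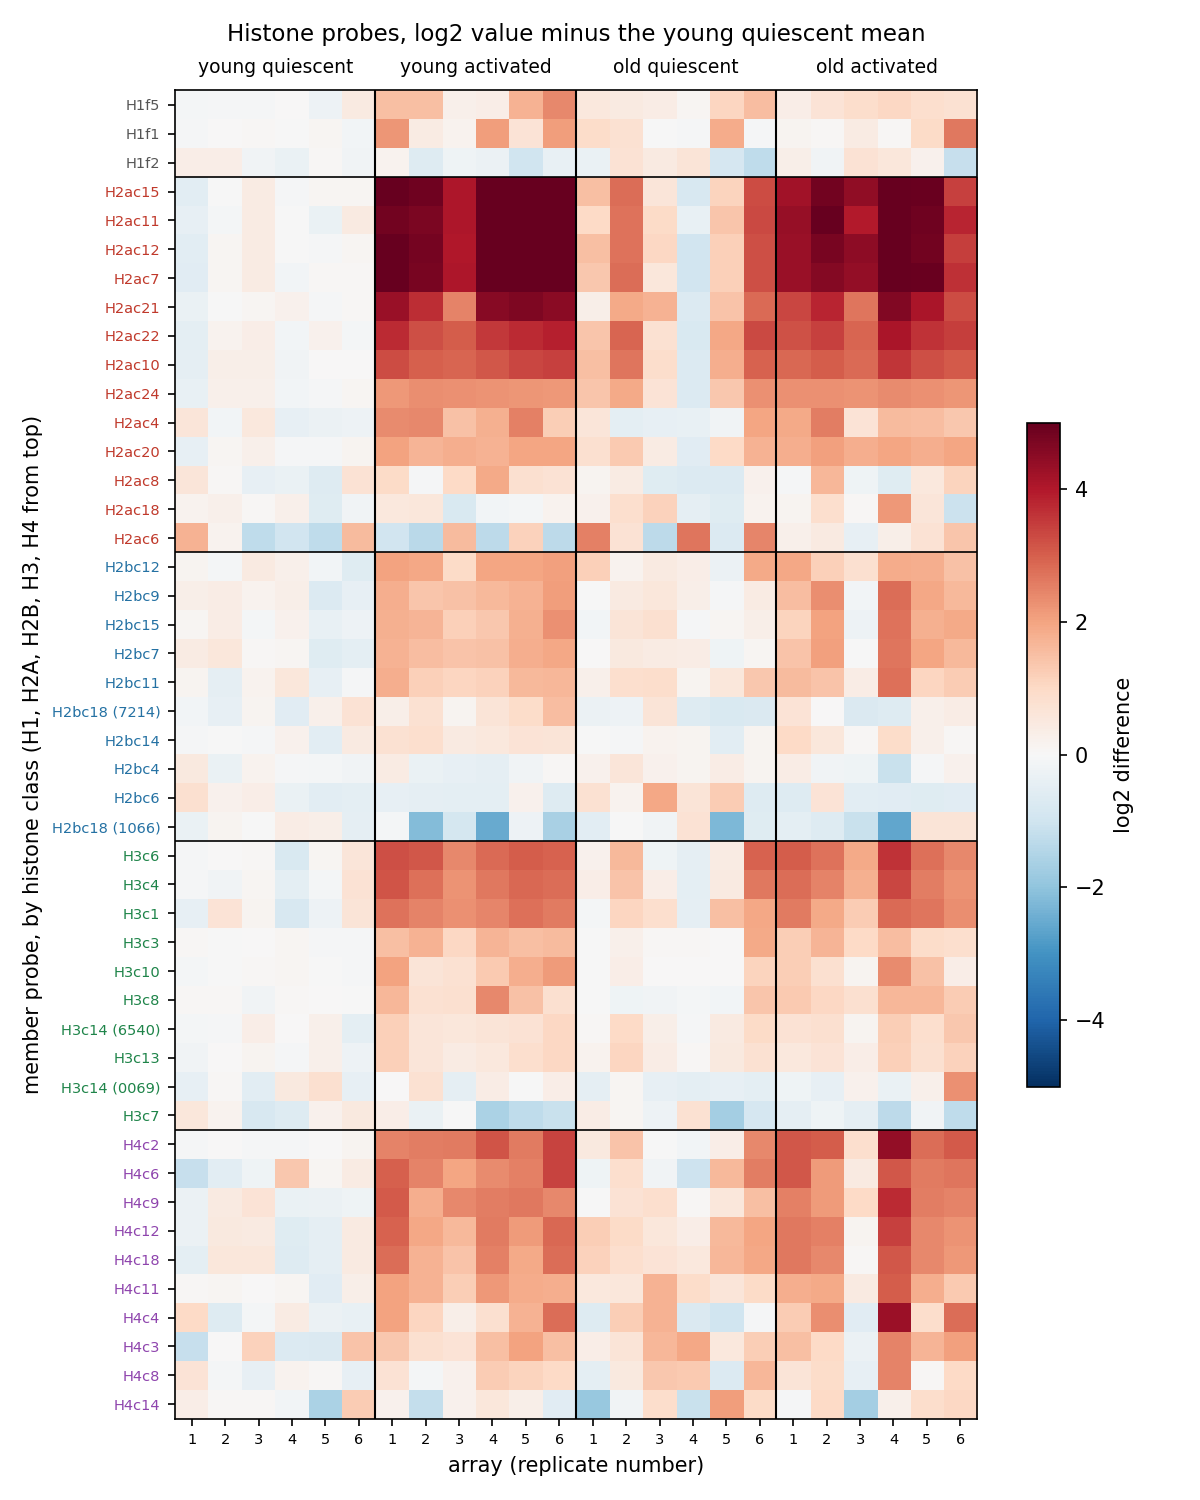
Log2 value of each member probe on each array minus the mean of the probe over young quiescent arrays (colour, from -5 in blue to 5 in red), with probes in rows by class (H1, H2A, H2B, H3, H4 from the top, the last 4 digits of the probe ID where a gene has more than 1) and the 24 arrays in columns. The rows of the 10 H2A probes that rose lie at least 0.672 above 0 on all activated arrays, and old activated array 3 is pale in the H2B and H4 rows.

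Among the activated arrays, old activated array 3 did not carry the H2A, H2B, H3 and H4 classes together. On old activated array 3 the median difference from the young quiescent mean was 2.70 for H2A probes, 0.55 for H3, 0.10 for H4 and -0.17 for H2B. On the other old activated arrays it was 2.88 to 3.57 for H2A, 0.93 to 1.59 for H3, 2.11 to 3.12 for H4 and 0.87 to 1.39 for H2B. Array 3 was the lowest old activated array for 30 of 46 members, and array 4 the highest for 28 (14.9% and 25.1% of all probes). Leaving out array 3 gave 29 higher and 1 lower in old FAPs, and leaving out array 4 gave 21 and 1. The share of all probes called in either direction was 26.2% and 25.9%, against 27.1% with all arrays. Young activated array 3 was the lowest of its group for 29 members (13.9% of all probes). Without it 35 members rose in young FAPs, where 30.3% of all probes were called in either direction.

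Many genes of DNA replication, mitosis and histone deposition rose as well, while few G1 and S phase regulators did. Over all probes tested, 17.3% were higher after activation in young and 14.5% in old FAPs. Of 25 DNA replication genes with a passing probe 20 rose and 0 fell in young FAPs and 19 and 0 in old FAPs, with median log2 changes of 2.16 and 1.51. Tk1, which salvages thymidine for DNA synthesis, rose by 4.71 and 3.96, and Rrm2, a subunit of ribonucleotide reductase, by 3.01 and 2.53. All 12 measured mitosis genes rose in young and 11 in old FAPs (medians 2.61 and 2.10). Of 11 histone chaperones and deposition factors 7 rose in young and 5 in old FAPs, among them Chaf1a (1.80 and 1.48) and Chaf1b (1.66 and 1.76), subunits of the CAF-1 complex that places H3 and H4 on new DNA, and Hat1 (1.52 and 1.28), which acetylates new H4. Of 15 G1 and S phase cyclins, E2F factors and inhibitors 2 rose and 2 fell in young FAPs and 3 rose and 1 fell in old FAPs. E2f1, an activator of S phase genes, rose by 2.20 and 2.10, and the inhibitor Cdkn1c fell by 3.36 in young and fell by 2.93 in old FAPs.

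Of 6 passing genes for histone variants that are made outside S phase as well, 4 rose in young and 5 in old FAPs and 0 fell (medians 1.41 and 0.98): Cenpa, the centromeric H3, by 4.22 and 3.51, H2az1 by 2.17 and 1.93, H2ax by 1.96 and 1.01, and Macroh2a1 by 0.87 and 0.80. H3f3a, a gene for the variant H3.3, rose in old FAPs alone (0.95), and H3f3b did not pass in either age (0.07 and -0.05). Factors that make and process histone mRNA were poorly measured: 5 of 15 on the array passed the filter, none was called by limma, and Slbp, the stem-loop binding protein, was not among the 5. At an unadjusted p under 0.05 the counts were 0 in young and 1 in old FAPs. Upf1, which takes part in the decay of histone mRNA, changed by -0.61 and -0.19, without passing.

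Markers of other cell types moved with activation too. Of 11 macrophage and monocyte genes 10 rose in young and 9 in old FAPs, and their mean log2 level ran from 6.36 to 7.32 in young quiescent, 8.81 to 11.21 in young activated, 7.08 to 10.68 in old quiescent and 10.28 to 11.21 in old activated FAPs. Ptprc, Itgam and Ccr2 did not pass the filter. Of 13 FAP and fibroblast genes 10 fell in young FAPs, and 9 fell and 1 rose in old FAPs, with levels of 10.12 to 10.71, 8.54 to 9.32, 9.78 to 10.62 and 8.51 to 9.31 in the same order. Pdgfra, the defining FAP marker, fell by 1.03 and 1.10. Endothelial genes fell for 9 of 10 in young and 4 of 10 in old FAPs (8.76 to 9.63, 5.97 to 7.19, 8.01 to 9.23 and 7.36 to 7.80). Lymphocyte genes fell for 1 of 7 and 5 of 7, and 3 of 7 were higher in old than in young quiescent FAPs (levels 5.78 to 6.20, 5.73 to 6.10, 6.56 to 9.61 and 5.47 to 6.78). Red blood cell genes fell for 3 of 3 in both ages, and pericyte genes for 5 and 3 of 7. Of 7 satellite cell and myoblast genes on the array 2 passed and 1, Chrna1, rose in young FAPs (2.16), while Pax7, Myf5, Myod1 and Myog stayed below the filter. The part of these cells in the histone levels was not tested.

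Beside the members, 4 probes that carry an older Hist name fall outside the symbol rule. H4f16 passed the filter and was not called (0.12 in young, -0.28 in old FAPs), and H2aw, H2bu1-ps and H2bu2 did not pass.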

How the data were processed

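The authors' main table holds, per the file headers, intensities before normalization with their detection p-values, for 25697 probes on 24 arrays. A second deposited table of log2 values served as an alternative. These log2 values differed by at most 0.118 from log2 of quantile-normalized intensities, and every column had a median of 6.71. Partek is named in the submitters' processing notes, with no version. The nec function of limma 3.58.1 (R 4.3.3) removed background using those detection p-values, with an offset of 16 that shrinks the changes of dim probes, before quantile normalization and log2. The filter kept the 10048 probes whose detection p was under 0.01 on 6 or more arrays. One model of 4 group means gave each contrast, with Benjamini-Hochberg adjustment over all kept probes and a threshold of 0.05, and intervals are 95%. A probe not above background on any array of a group gets a lower bound of its fold. On simulated data for activation in young FAPs (10048 probes, 3 runs of 200 changed probes), 47.7% of 2-fold and 93% of 4-fold changes were recovered, and 7.05% of calls were false. The simulated noise was independent between probes, and in the data 32.7% of all probes were called for this comparison. The simulated rates therefore need not hold for it.

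Gene symbols are those of the platform annotation: 23978 probes have one. All passing members are named, with array values for the 2 brightest probes of each class and for a member called against its class, of other lists at most 6 called genes, and promoters for at most 10 members. The 13 lists, the members and the rules were chosen with earlier results of these data known. Alternatives were the background correction, offset, scaling, detection filter, the authors' values, array weights, probe choice, the groups in the fit, a replicate block and leaving out each array. Precision is limited by the number of arrays.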

Additional observations from a re-analysis of the deposited data

Results flagged for a closer look

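Of 184 sets of 6 values (46 member probes in 4 groups), 18 had a highest or lowest array further from its neighbour than Dixon's 95% limit. For independent, normally distributed values chance gives about 1 in 20. Some sets lie near background and probes of near copies may share RNA, so that rate need not hold here. The share over all probes is not given. Old quiescent array 6 was high for H3c3 (6.11, next 4.48), H3c8 (5.82, next 4.41) and H3c10 (5.37, next 4.57), each near background on the other 5 arrays. Old activated array 3 was low for H4c6 (5.84, next 7.52), H4c12 (7.0, next 9.11) and H4c18 (6.78, next 8.87). Young activated array 3 was low for H2ac15 (11.74, next 12.59), H2bc12 (7.79, next 8.78) and H3c3 (5.29, next 5.75).

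The remaining values were spread over other arrays. Old activated array 6 was high for H1f1 (6.95) and for H3c14 on ILMN_3040069 (7.06), and old quiescent array 2 was high for the same H3c14 probe (4.88). H2bc6 was high on young activated array 5 (5.03) and on old activated array 2 (5.50). H4c11 was low on young quiescent array 5 (7.10) and high on old quiescent array 3 (9.38). H2bc14 was low on old quiescent array 5 (5.83), and H3c8 on young quiescent array 3 (4.26), where it was not above background.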

How the results depend on the processing

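The count of member probes called, 33 of 46 (activation, young), 26 (activation, old) and 0 in the other comparisons, was computed under 11 other settings, without each array in turn, and without old quiescent 2 and old activated 4 together, a setting chosen after seeing the data. For activation it was 23 to 38 in young and 18 to 28 in old FAPs under the 11 settings, 32 to 36 and 22 to 30 without single arrays, and 36 and 22 without the pair (35.1% and 28.5% of all probes called). The 11 settings tested from 26 members (detected on all 24 arrays) to 60 (no detection filter), so their counts are not over the same probes. Under them 11.2% to 42.3% of all probes were called in young and 8.84% to 36.4% in old FAPs. For age in quiescent FAPs the count was 1 among probes detected on all 24 arrays, 1 with array weights, and 0 to 9 without single arrays. For the difference between activation changes it was 0 to 4 without single arrays, and for age in activated FAPs it was 0 throughout. A fit of only the 2 groups compared has no value for that difference, which needs all 4. Of the 59 calls of single probes 48 were lost in none of the settings that tested them, and 0 changed sign. Probes missing from some arrays have no value among those detected on all 24. A fit of only the 2 groups compared ended 8 calls in old FAPs (H2ac24, H2bc6, H2bc12, H3c3, H4c4, H4c6, H4c11 and H4c12, adjusted p = 0.0536 to 0.127), and no detection filter ended 6 (H1f1 and H4c3 in young, H2bc12, H4c4, H4c11 and H4c12 in old FAPs, 0.0726 to 0.112). H2bc14 in young FAPs was lost under median scaling, H4c3 in young FAPs without background correction (0.0578) and with the authors' values (0.058), H2bc12 and H4c12 in old FAPs with array weights (0.0713 and 0.0518), H4c4 in old FAPs without background correction (0.05), and H2bc12, H4c4, H4c11 and H4c12 in old FAPs without the pair of arrays (0.0624 to 0.165). The fit with a replicate block called 33, 26, 0, 0 and 0 probes and ended 1 call, H4c4 in old FAPs (adjusted p = 0.0508). Samples of the same number deviated together beyond a correlation of 0.1 in 8 of 36 pairs (-0.092 to 0.36), and no label ties a number to a shared animal, batch or day, so the numbers were not taken to pair the samples. Near background and near the top of the intensity range, where H2ac20, H2ac24 and H2ac10 lie, signal may limit the size of changes, which was not tested.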
